A study of Homo sapiens with 10 samples.

Results

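The effect of LBP on gene expression was measured over irradiated and non-irradiated keratinocytes together. LBP stands for a sugar-rich extract, polysaccharide bound to glycoprotein, of the goji berry shrub Lycium barbarum. All 10 of the 10 libraries of the series entered the comparison: the 5 from LBP-pretreated cells against the 5 from cells that received vehicle, with radiation as an additive term. The cells were HaCaT, an established and spontaneously immortalised human keratinocyte line that the labels list as wild type. Every culture received LBP or vehicle for 24 h. Non-irradiated cells gave 2 vehicle and 2 LBP libraries. The other libraries, 3 irradiated vehicle and 3 irradiated LBP, came from cells exposed to 12 Gy after the pretreatment, and RNA was taken 3 h after exposure. The labels give no LBP dose, so no dose is named here. Libraries within a group are numbered, with no word on whether each had its own culture. The p-values therefore reflect only how far these samples scatter, and that scatter may be technical. The question was which genes LBP raised or lowered whether or not the cells were then irradiated. All values come from bulk RNA, in which fewer cells of a type and less RNA per cell cannot be told apart.

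As background, NRF2 is a transcription factor that KEAP1 keeps short-lived. Oxidants and electrophiles release it to bind antioxidant response elements beside genes of glutathione, thioredoxin, quinone and haem handling. The aryl hydrocarbon receptor is a second sensor, which binds planar ring compounds and drives CYP1 enzymes from xenobiotic response elements, and keratinocytes carry both systems as part of the skin barrier. ATF4 of the integrated stress response raises amino acid transporters and biosynthetic enzymes, and hypoxia-inducible factor raises glycolytic genes.

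Library totals ran from 31830506 to 62986831 counts. After a filter on low counts, 14799 of 22003 features entered the test. Libraries of a group varied by 11.8% (fitted biological coefficient of variation). LBP and vehicle libraries separated on the principal component of largest variance (19.4%). Components 2 and 3 held 13.4% and 12.7%. Their most extreme libraries were irradiated LBP replicate 3 on component 2 and irradiated LBP replicate 2 on component 3. The share of counts from mitochondrially encoded genes was 2.70 ± 0.52% in vehicle and 2.73 ± 0.48% in LBP libraries (SD, n = 5 each; exact two-sided permutation test within radiation states, p = 0.93, smallest possible p 0.017). The labels give the tissue as mucosa. All 10 keratinocyte markers, among them KRT5, KRT14 and TP63, averaged at least 1 CPM (counts relative to library size, trimmed mean of M values scaling), and they summed to 9446 to 10447 CPM in vehicle and 10726 to 11749 CPM in LBP libraries. Markers of simple and mucosal epithelium were also high, at 7913 to 8971 CPM in vehicle and 7193 to 8999 CPM in LBP libraries, mostly from KRT7, KRT8, KRT18 and KRT19. DCN of fibroblasts, PECAM1 and TEK of endothelium, CD3D, MS4A1 and TYROBP of leukocytes and TYR of melanocytes were at 0 in every library. Other markers of these types were present at low levels. The lists summed to 5.40 to 6.85 CPM in vehicle and 5.06 to 7.46 CPM in LBP libraries for fibroblasts, 5.74 to 7.84 and 6.503 to 8.55 CPM for endothelium, 14.1 to 16.4 and 13.7 to 20.8 CPM for leukocytes (mostly CD68) and 7.99 to 9.65 and 6.66 to 7.61 CPM for melanocytes (mostly MITF). MITF was called lower (-0.35 ± 0.09; adjusted p = 0.037), a call lost without any library but LBP replicate 2, and no other marker of these 4 types was called.

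LBP changed 1112 features, 7.51% of those tested, by edgeR's quasi-likelihood test at an adjusted p under 0.05. Of these, 655 rose (4.43%) and 457 fell (3.09%). These shares of all tested features are the background for the list counts below. Most changes were small. The median size was 0.36 on the log2 scale, 858 were under 1.5-fold, and 92 (0.622% of tested features) reached 2-fold, 69 of them higher and 23 lower. Most of these 92, and most of the 23 falls among them, had a mean log2 CPM under 1. In 955 of the 1112 every LBP library lay beyond every vehicle library within each radiation state, which was also true of 11.9% of all tested features (6.54% above and 5.35% below). That share describes the calls and adds no support to them, since they rest on the same difference. The features that rose summed to 51644 CPM in vehicle and 71673 CPM in LBP libraries, and those that fell summed to 33860 and 27687 CPM. The split of 58.9% higher among calls varied with the processing. Among calls it was 49.2% with library totals alone. It was 44.1% with limma on the log2(FPKM + 1) values, where the test and the tested features (11983) differed as well. The count was 617 without vehicle replicate 2, 605 without LBP replicate 1, 506 and 527 without irradiated vehicle replicates 1 and 2, and 629 without irradiated LBP replicate 1, and DESeq2 gave 1650.

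The highest fold change by the naming rule was that of HMOX1, encoding haem oxygenase, which breaks haem down to iron, biliverdin and carbon monoxide. HMOX1 stood at 3.55 and 4.84 CPM in the vehicle libraries, 4.27, 4.17 and 6.16 in irradiated vehicle, 103 and 127 in LBP and 113, 74.95 and 88.7 in irradiated LBP. No LBP library came near any vehicle library. The rise was 21.7-fold, a log2 fold change of 4.44 ± 0.17 (SE; adjusted p = 1.3e-08), with 4.75 in non-irradiated and 4.24 in irradiated cells. CYP1A1, a cytochrome P450 that oxidises polycyclic hydrocarbons, stood at 13.9 and 14.4 CPM in the vehicle libraries, 8.18, 11.98 and 12.3 in irradiated vehicle, 94.1 and 114 in LBP and 107, 83.98 and 103 in irradiated LBP. Its groups did not overlap, and the lowest of its vehicle values came from irradiated vehicle replicate 1. It rose 8.30-fold (3.05 ± 0.12; adjusted p = 1.3e-08). CYP1B1, a related enzyme, stood at 29.6 and 32.9 CPM in the vehicle libraries, 20.3, 27.6 and 28.9 in irradiated vehicle, 155 and 145 in LBP and 153, 132 and 124 in irradiated LBP and rose 5.11-fold (2.35 ± 0.10). Again all LBP values lay far above all vehicle values. CYP1B1 overlaps antisense and neighbouring transcripts on both strands, and whether counting used strand is not given in the sources used here.

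**Figure D1:**
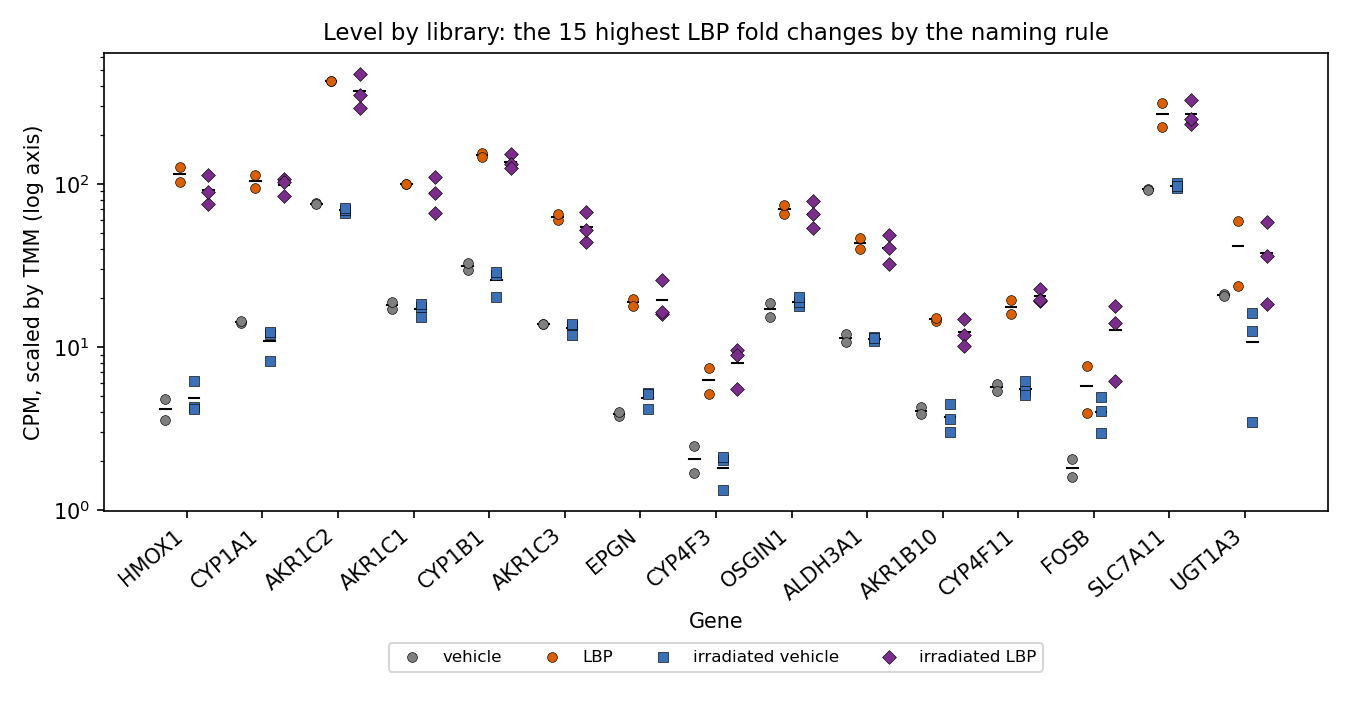
CPM (log axis, trimmed mean of M values scaling) of the 15 genes with the highest LBP fold changes by the naming rule; each point is 1 library, colour and shape give the group, and bars are group means. The naming rule takes only genes whose LBP and vehicle libraries do not overlap within either radiation state, so all 15 show this by choice. UGT1A3 and FOSB spread widely within groups.

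AKR1C1, AKR1C2 and AKR1C3, aldo-keto reductases that reduce ketosteroids, prostaglandins and reactive carbonyls, followed. AKR1C2 stood at 75.8 and 75.7 CPM in the vehicle libraries, 66.5, 69.3 and 71.4 in irradiated vehicle, 425 and 428 in LBP and 472, 291 and 348 in irradiated LBP. The 2 non-irradiated LBP libraries nearly coincided, the 3 irradiated ones spread more widely, and none came near the vehicle range. AKR1C2 rose 5.47-fold (2.45 ± 0.10; adjusted p = 1.7e-08), AKR1C1 5.30-fold (2.41 ± 0.11) and AKR1C3 4.30-fold (2.10 ± 0.10). These paralogs lie side by side on chromosome 10 and are alike in sequence, and each may have drawn reads of the others. AKR1B10, a reductase of retinal and lipid aldehydes on another chromosome, went from 3.85 ± 0.58 to 13.3 ± 2.2 CPM (1.78 ± 0.12; SD, n = 5 each). ALDH3A1, which oxidises aldehydes, went from 11.3 ± 0.52 to 41.5 ± 6.5 CPM (1.87 ± 0.10). Of 20 tested aldo-keto reductase and aldehyde dehydrogenase genes, 9 rose, none fell, and 11 were not called. The list's median was 0.31, against 0.0065 over all tested features. The other members that rose were ALDH3A2, AKR1B1, ALDH1A3 and ALDH2.

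Of 29 tested NRF2 antioxidant genes 24 rose and none fell, where 4.43% of all tested features rose. The list's median was 0.58 (0.62 in non-irradiated and 0.57 in irradiated cells), and its lowest member stood at 0.01. With any 1 library left out, 23 or 24 rose. The 29 genes together summed to 8566 to 9366 CPM in the 5 vehicle libraries and 13752 to 16918 CPM in the 5 LBP libraries. A large share of this sum came from ferritin, the iron store: FTH1, its heavy chain, stood at 3644 and 3598 CPM in the vehicle libraries, 3015, 3355 and 3508 in irradiated vehicle, 7399 and 7648 in LBP and 7479, 6042 and 7015 in irradiated LBP. The groups stood far apart, with irradiated LBP replicate 2 the lowest of the LBP libraries. FTH1 rose 2.08-fold (1.06 ± 0.07; adjusted p = 7.8e-07), although processed copies of FTH1 elsewhere in the genome can share its reads. The light chain gene FTL went from 753 ± 30 to 1348 ± 154 CPM (0.84 ± 0.07).

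NQO1, which reduces quinones by 2 electrons and so avoids radical intermediates, stood at 249 and 258 CPM in the vehicle libraries, 253, 263 and 258 in irradiated vehicle, 595 and 643 in LBP and 597, 465 and 515 in irradiated LBP. The vehicle libraries lay within a narrow range and each LBP library was clearly above it. It rose 2.19-fold (1.13 ± 0.07; adjusted p = 9.7e-07). For glutathione, SLC7A11, the cystine importer, stood at 93.4 and 91.3 CPM in the vehicle libraries, 94.8, 101 and 96.4 in irradiated vehicle, 312 and 222 in LBP and 328, 231 and 248 in irradiated LBP, with no overlap and more spread among LBP than among vehicle libraries. SLC7A11 rose 2.81-fold (1.49 ± 0.10). GCLC and GCLM, the catalytic and modifier subunits of the enzyme that makes the glutathione precursor, rose by 1.24 ± 0.08 and 0.83 ± 0.08. GSR, which regenerates glutathione, also rose. For thioredoxin, TXNRD1, the reductase that recharges it, went from 246 ± 13 to 528 ± 105 CPM (1.10 ± 0.11), and SRXN1, which repairs overoxidised peroxiredoxins, from 218 ± 15 to 399 ± 46 CPM (0.87 ± 0.08). OSGIN1, an oxidant-induced growth regulator, went from 18.2 ± 1.8 to 67.4 ± 9.8 CPM (1.89 ± 0.10). The NRF2 genes that rose also included PGD, EPHX1, SLC48A1, ABHD4, GPX2, ABCC3, NQO2, PIR, ME1, TKT, TXN and ABCC2, several of them enzymes that supply NADPH or pumps that export conjugates.

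Promoters of 2 of these genes are printed because their capitals mark matches to an antioxidant response element within 250 bases of the start site. They are RefSeq sequences of build GRCh38.p14, running from 250 bases before to 50 bases after the start site. Motifs were searched on both strands. OSGIN1 (chr16:83952990-83953289, plus strand; inside the span of the GENCODE gene, whose start lies upstream) holds the long antioxidant response element on the opposite strand, from 100 bases upstream of the start site. TXNRD1 (chr12:104215529-104215828, plus strand) holds the core element TGACNNNGC from 99 bases upstream and again, on the opposite strand, from 8 bases upstream.
OSGIN1: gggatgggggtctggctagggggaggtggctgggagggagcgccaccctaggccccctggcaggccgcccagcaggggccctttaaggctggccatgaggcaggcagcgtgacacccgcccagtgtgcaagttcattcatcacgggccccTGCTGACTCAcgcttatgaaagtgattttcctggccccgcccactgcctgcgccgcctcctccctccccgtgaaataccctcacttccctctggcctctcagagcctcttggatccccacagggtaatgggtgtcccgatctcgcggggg
TXNRD1: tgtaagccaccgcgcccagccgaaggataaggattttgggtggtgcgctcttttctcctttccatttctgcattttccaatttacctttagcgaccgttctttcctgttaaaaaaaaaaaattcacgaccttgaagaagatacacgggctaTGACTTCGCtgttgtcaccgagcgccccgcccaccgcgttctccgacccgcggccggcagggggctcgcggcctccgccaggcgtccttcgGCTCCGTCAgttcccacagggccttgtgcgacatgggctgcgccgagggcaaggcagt

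Of the 10709 tested features with a RefSeq promoter, 1602 held the core element TGACNNNGC (14.96%), as did 17.9% of the 474 that rose and 16.6% of the 356 that fell. Among 18 NRF2 antioxidant genes that rose and had a promoter sequence, 6 held it (33.3%): GCLM, TXNRD1, PGD, ME1, PIR and GPX2. The core was also in 8 of 19 integrated stress genes that rose (42.1%) and in 2 of 14 hypoxia genes (14.3%). The long element, of which some forms contain the core, was rare, in 26 promoters (0.243%), 6 of them of genes that rose and 2 of genes that fell. The xenobiotic element core GCGTG was in 50.3% of all promoters, in 237 of the 474 that rose and in 50.8% of those that fell. A match in this window is a description of the letters and not evidence of binding.

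Regulators of NRF2 and enzymes around it moved less. Of 14 tested NRF2 regulators and partners 5 rose and 1 fell. SQSTM1, an autophagy receptor that binds KEAP1, went from 465 ± 29 to 705 ± 76 CPM (0.60 ± 0.07; adjusted p = 2.8e-04), MAFG, a small MAF partner, changed by 0.42 ± 0.09, and NFE2L1, KEAP1 and BACH1, a repressor of HMOX1, also rose. NFE2L3, a relative of NRF2, fell by 0.44 on the log2 scale, from 124 ± 4.8 to 91.6 ± 8.7 CPM. The 5 that rose were 2 without vehicle replicate 2 or irradiated vehicle replicate 1 or 2, and 3 without LBP replicate 1, irradiated vehicle replicate 3 or irradiated LBP replicate 1. Of 15 pentose phosphate and NADPH genes 5 rose and none fell, among them PGD of the oxidative branch (0.60 ± 0.05), ME1, MTHFD2 and TKT. Of 33 thioredoxin and glutathione enzymes 6 rose and none fell, with a median of 0.03. They included TXNIP, an inhibitor of thioredoxin and of glucose uptake, at 35.1 ± 3.7 against 73.8 ± 9.3 CPM (1.07 ± 0.09), GPX2, a glutathione peroxidase, and GSS, which completes glutathione.

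Iron and haem genes rose in 8 of 20 tested cases and fell in none, with a median of 0.04. HMOX1 and both ferritin chains led them, and SLC48A1, a haem transporter, changed by 0.53 ± 0.05. The others that rose were FECH, ALAS1 and PPOX of haem synthesis and TFRC, the transferrin receptor. Without vehicle replicate 2 or irradiated vehicle replicate 1 or 2, 5 rose. Among 13 zinc transporter and metallothionein genes 1 rose and none fell (7.69% called, where 4.43% of all tested features rose). That was SLC30A1, which exports zinc from the cell and is a standard target of the zinc sensor MTF1, at 44.5 and 43.99 CPM in the vehicle libraries, 48.1, 51.2 and 54.3 in irradiated vehicle, 101 and 78.1 in LBP and 115, 92.98 and 101 in irradiated LBP. Every LBP library exceeded every vehicle library (1.01 ± 0.08; adjusted p = 4.9e-06).

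Aryl hydrocarbon receptor genes rose in 6 of 12 tested cases and fell in none, with a median of 0.48. Beside CYP1A1 and CYP1B1 these were UGT1A6, a glucuronosyltransferase (0.53 ± 0.05), TIPARP, a feedback inhibitor of the receptor (0.59 ± 0.11), ALDH1A3, which makes retinoic acid (0.43 ± 0.09), and LRAT, which esterifies retinol. UGT1A3 went from 14.8 ± 7.3 to 39.2 ± 19 CPM (1.47 ± 0.39; adjusted p = 0.038). UGT1A genes share exons and reads, its vehicle libraries ran from 3.46 CPM in irradiated vehicle replicate 1 to 21.2 CPM, and its call was lost in 14 of 23 alternative settings, among them leaving out any library but LBP replicate 1 or irradiated LBP replicate 3. Of 17 other cytochrome P450 genes 3 rose and 2 fell. CYP4F11 and CYP4F3, omega-hydroxylases of fatty acids and leukotrienes, changed by 1.78 ± 0.09 and 1.91 ± 0.21, the latter at a low level (1.92 to 7.34 CPM), and CYP4V2 also rose. CYP27B1 and CYP24A1, which activate and degrade vitamin D, changed by -0.40 ± 0.06 and -0.35 ± 0.08. The call of CYP24A1 was lost without vehicle replicate 2 or irradiated vehicle replicate 2.

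Of 36 tested integrated stress response and amino acid genes 23 rose and none fell, with a median of 0.41 (0.36 in non-irradiated and 0.48 in irradiated cells). With 1 library left out, 19 to 26 rose. SLC3A2 and SLC7A5, which together form an importer of large neutral amino acids, went from 609 ± 26 to 963 ± 87 CPM (0.66 ± 0.06) and from 1936 ± 90 to 2682 ± 155 CPM (0.47 ± 0.05). ASNS, asparagine synthetase, stood at 137 and 133 CPM in the vehicle libraries, 142, 135 and 139.9 in irradiated vehicle, 232 and 235 in LBP and 246, 205 and 216 in irradiated LBP. Its LBP libraries were all above its vehicle libraries, and it rose 1.65-fold (0.72 ± 0.06; adjusted p = 4.9e-06). CTH, which makes cysteine from cystathionine, changed by 0.81 ± 0.09. CHAC1, which degrades glutathione, changed by 0.74 ± 0.14, with its 2 highest values in irradiated LBP replicates 1 and 3. Also higher were PHGDH and PSAT1 of serine synthesis, PYCR1 of proline synthesis, MTHFD2, the aminoacyl-tRNA synthetases AARS1, WARS1 and GARS1, and the regulators TRIB3, NUPR1 and CEBPG. ATF3, an ATF4 target and stress factor, was not called. It stood at 11.1 and 14.3 CPM in the vehicle libraries, 15.1, 15.6 and 16.1 in irradiated vehicle, 16.8 and 17.3 in LBP and 25.9, 14.5 and 82.04 in irradiated LBP (1.02 ± 0.36; adjusted p = 0.11), so that irradiated LBP replicate 3 stood alone, and without irradiated LBP replicate 2 the gene was called higher.

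The ASNS promoter (chr7:97872359-97872658, minus strand) is printed for its match to the composite ATF4 and CEBP element TGATGNAA, in capitals, from 68 bases upstream of the start site.
ASNS: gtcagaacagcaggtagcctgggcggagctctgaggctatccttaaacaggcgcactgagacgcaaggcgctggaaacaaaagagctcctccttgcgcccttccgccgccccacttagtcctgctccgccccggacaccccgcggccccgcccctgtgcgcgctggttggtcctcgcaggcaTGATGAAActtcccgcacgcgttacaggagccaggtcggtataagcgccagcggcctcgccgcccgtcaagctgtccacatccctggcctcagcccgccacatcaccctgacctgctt

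That element was in 1.72% of all 10709 promoters, 3.38% of those that rose and 1.40% of those that fell. Among 19 integrated stress genes that rose and had a promoter sequence it was in 4 (21.1%): CHAC1, ASNS, SLC3A2 and AARS1. Calls were few in the neighbouring response of the endoplasmic reticulum, though at a larger share than over all tested features. Of 23 unfolded protein response genes 3 rose and none fell (13.0% called, where 4.43% of all tested features rose), with a median of 0.01. XBP1, its transcription factor, changed by 0.34 ± 0.07, and EDEM1 and DNAJB9 lost their calls in 10 and 14 of 23 settings, so that 1 gene of the list rose without any library except vehicle replicate 1, LBP replicate 2 or irradiated LBP replicate 2.

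Hypoxia and glycolysis genes rose in 16 of 34 tested cases and fell in none, with a median of 0.27, and 33 of the 34 had positive values. BNIP3, of mitochondrial clearance, stood at 36.95 and 28.2 CPM in the vehicle libraries, 34.9, 38.1 and 31.9 in irradiated vehicle, 85.9 and 79.5 in LBP and 81.998, 72.6 and 94.03 in irradiated LBP. No values overlapped (2.44-fold, 1.29 ± 0.09; adjusted p = 1.9e-06). ALDOC, a glycolytic aldolase, changed by 1.09 ± 0.07 and NDRG1, a hypoxia-induced differentiation gene, by 1.04 ± 0.07. CA9, the carbonic anhydrase induced by hypoxia-inducible factor, was low throughout, at 0.184 and 0.382 CPM in the vehicle libraries, 0.368, 0.190 and 0.477 in irradiated vehicle, 1.64 and 1.66 in LBP and 2.71, 1.94 and 2.13 in irradiated LBP. Even so, every LBP library exceeded every vehicle library (6.10-fold, 2.61 ± 0.25; adjusted p = 4.4e-05). SLC2A1, HK2, GPI, PFKL, ALDOA and PGK1, from glucose entry through lower glycolysis, also rose, as did BNIP3L, PDK1, P4HA1, ANGPTL4, MXI1 and ADM. With 1 library left out, 11 to 15 rose.

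Promoters of CA9 (chr9:35673678-35673977, plus strand) and BNIP3 (chr10:131981874-131982173, minus strand) are printed with the hypoxia element core ACGTG in capitals. The match in CA9 lies on the opposite strand, from 18 bases upstream. BNIP3 holds the palindrome CACGTG, which gives overlapping matches on the 2 strands, from 134 and 133 bases upstream.
CA9: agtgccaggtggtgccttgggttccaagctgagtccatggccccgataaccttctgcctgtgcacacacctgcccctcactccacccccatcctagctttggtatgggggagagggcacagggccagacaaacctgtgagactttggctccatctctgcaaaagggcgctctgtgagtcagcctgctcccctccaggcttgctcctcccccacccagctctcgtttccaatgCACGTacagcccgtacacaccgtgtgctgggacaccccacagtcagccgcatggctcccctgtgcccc
BNIP3: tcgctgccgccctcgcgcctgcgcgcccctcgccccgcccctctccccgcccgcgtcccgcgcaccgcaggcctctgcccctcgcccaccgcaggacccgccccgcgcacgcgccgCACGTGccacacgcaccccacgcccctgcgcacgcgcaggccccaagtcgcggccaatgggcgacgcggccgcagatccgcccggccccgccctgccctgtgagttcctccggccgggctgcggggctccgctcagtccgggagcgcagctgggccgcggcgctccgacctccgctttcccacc

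The core ACGTG was in 26.3% of all promoters, 25.1% of those of features that rose and 22.5% of those that fell. Among 14 hypoxia and glycolysis genes that rose and had a promoter sequence it was in 9 (64.3%): CA9, BNIP3, HK2, GPI, ALDOA, ALDOC, PGK1, P4HA1 and ANGPTL4. Such lists were drawn from known targets of the factors concerned, so these shares are no independent evidence of a factor's part.

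**Figure D2:**
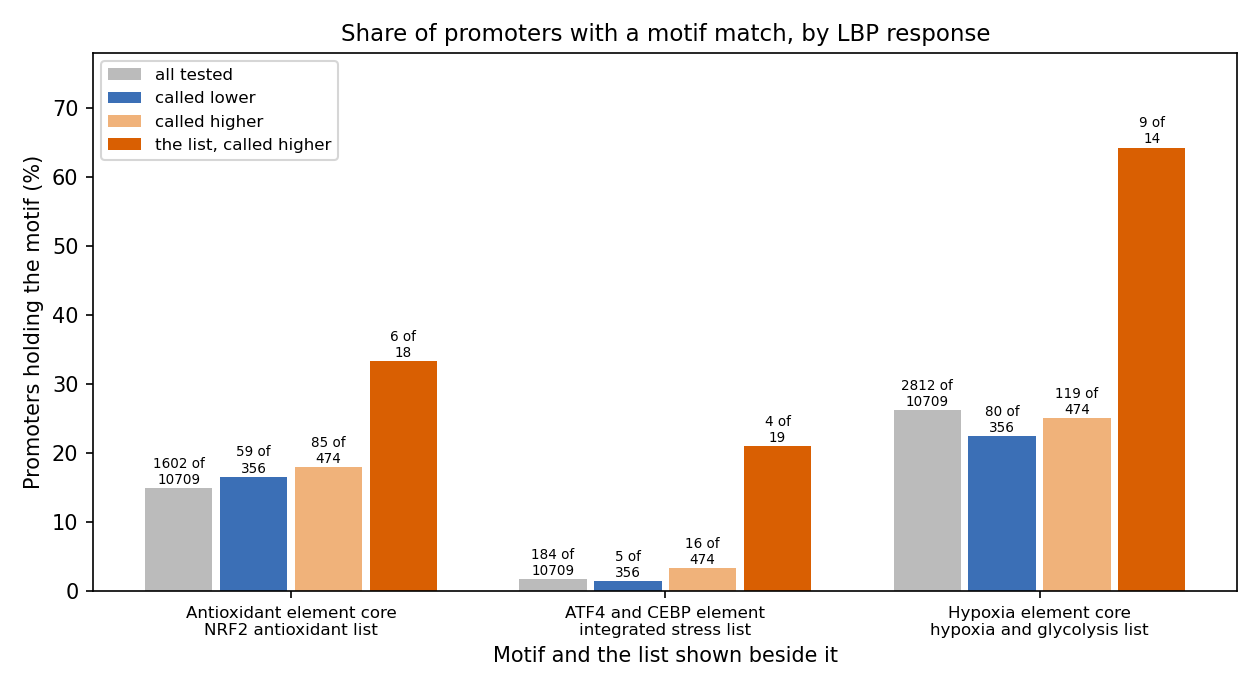
Percent of promoters (250 bases before to 50 after the start site) that hold each motif on either strand, for all tested features, those called lower, those called higher and the called-higher members of the list named under each motif; counts stand above the bars. Over all features that rose the shares are 17.9%, 3.38% and 25.1%, while in the lists they are 33.3%, 21.1% and 64.3%, from 18, 19 and 14 promoters.

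EGF-family genes rose in 6 of 14 tested cases and fell in none, with a median of 0.35. EPGN, encoding the ligand epigen, stood at 3.79 and 4.03 CPM in the vehicle libraries, 4.18, 5.21 and 5.17 in irradiated vehicle, 19.6 and 17.96 in LBP and 25.8, 16.03 and 16.4 in irradiated LBP. The LBP libraries held several times the vehicle level in each state (4.29-fold, 2.10 ± 0.14; adjusted p = 9.7e-07). EREG, encoding epiregulin, stood at 12.2 and 18.4 CPM in the vehicle libraries, 15.8, 22.5 and 21.7 in irradiated vehicle, 32.9 and 22.7 in LBP and 47.2, 24.3 and 81.9 in irradiated LBP, and irradiated LBP replicate 3 was far above the rest (1.16 ± 0.26; adjusted p = 0.020). EREG was not called without LBP replicate 1 or irradiated vehicle replicate 1 or 2. EGFR, the receptor, changed by 0.33 ± 0.07 and ADAM17, which sheds the ligands, by 0.36 ± 0.07, and AREG and NRG4 also rose. The list's count was 2 without LBP replicate 1 or irradiated vehicle replicate 1 or 2, and 3 without vehicle replicate 2 or irradiated LBP replicate 1.

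Immediate early genes rose in 7 of 26 tested cases and fell in none, with a median of 0.37. FOSB, an AP-1 subunit, stood at 1.61 and 2.05 CPM in the vehicle libraries, 2.97, 4.06 and 4.93 in irradiated vehicle, 7.66 and 3.96 in LBP and 14.003, 6.19 and 17.8 in irradiated LBP. The ranges of LBP and vehicle libraries did not overlap within a state, but non-irradiated LBP replicate 2 lay within the irradiated vehicle range (1.66 ± 0.26; adjusted p = 0.0027). FOSL1, another AP-1 subunit and far more abundant, went from 276 ± 44 to 435 ± 68 CPM (0.66 ± 0.11). EGR1, a growth factor response gene, changed by 1.26 ± 0.27 (adjusted p = 0.015) and lost its call without irradiated vehicle replicate 2. KLF10, EGR3, IER2 and FOS also rose, FOS with an adjusted p of 0.049 and its call lost in 15 of 23 settings. Spread among irradiated LBP libraries was wide: EGR1 stood at 36.2, 16.7 and 59.7 CPM there, lowest in replicate 2. The count for the list was 12 without that library. It was 4 without vehicle replicate 1, irradiated vehicle replicate 3 or irradiated LBP replicate 1, 3 without LBP replicate 1 or irradiated vehicle replicate 1, and 2 without irradiated vehicle replicate 2. Of 18 ERK feedback genes 1 fell and none rose (5.56% called, where 3.09% of all tested features fell). That was SPRY1 (2 fell without irradiated LBP replicate 3), which restrains receptor signalling, from 2.01 ± 0.14 to 0.973 ± 0.30 CPM (-1.08 ± 0.19). DUSP6 had a value of 0.25 ± 0.12, and without irradiated LBP replicate 2 the feedback genes had 2 calls higher. By DESeq2 none rose either, and no feedback gene with a positive value had an unadjusted p under 0.05.

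Keratinocyte genes rose in part. Of 24 tested differentiation genes 6 rose and none fell, with a median of 0.24. FLG, encoding the barrier protein filaggrin, stood at 133 and 137 CPM in the vehicle libraries, 97.8, 131 and 84.6 in irradiated vehicle, 228 and 191 in LBP and 249.8, 159.9 and 245 in irradiated LBP. Groups did not overlap (0.89 ± 0.14; adjusted p = 0.0030). TGM1, the transglutaminase that crosslinks the cornified envelope, went from 12.3 ± 2.6 to 22.5 ± 2.8 CPM (0.87 ± 0.13). SERPINB3, SERPINB4, SPRR2A and PPL also rose, the serpins at low levels and with near-identical sequences. KRT1 and IVL, also of differentiating cells, had values of 0.32 ± 0.31 and -0.04 ± 0.10, and KRT1 was near 0.2 CPM. KRT10, another such gene, was not called in the pooled edgeR test (0.22 ± 0.08, adjusted p = 0.13). Its change was 0.50 in non-irradiated cells (adjusted p = 0.013) and 0.03 in irradiated cells, with an interaction of -0.48 ± 0.11 (adjusted p = 0.57). The average of the within-state contrasts called it higher. Of 13 activated keratinocyte genes 4 rose and none fell: the wound keratins KRT16 (18.9 to 33.8 CPM, 0.84 ± 0.15), KRT17 (0.43 ± 0.09) and KRT6B, whose paralogs can share reads, and SERPINB4. Of 18 basal genes 6 rose and none fell: PLEC (0.36 ± 0.07), KRT15 (0.33 ± 0.07), TP63 (0.34 ± 0.07), LAMB3, LAMA3 and EGFR. KRT5 and KRT14, the main basal keratins, had values of 0.10 ± 0.06 and 0.16 ± 0.07 (adjusted p = 0.34 and 0.20). Without LBP replicate 1 the counts for differentiation and basal genes were 3 and 3. Without irradiated vehicle replicate 1 or 2 that for differentiation was also 3, and the activated count was 2 without either of these or vehicle replicate 1. Of 12 tested markers of simple and mucosal epithelium 2 rose and 1 fell, with a median of -0.04, and 5 with positive and 4 with negative values had an unadjusted p under 0.05. The tight junction gene CLDN4 went from 257 ± 41 to 387 ± 80 CPM (0.59 ± 0.12), and CLDN3, under 1 CPM, lost its call without any 1 of the 10 libraries. KRT18, a keratin of simple epithelium, went from 1628 ± 66 to 1372 ± 194 CPM (-0.25 ± 0.07; adjusted p = 0.050) and was not called without any library except vehicle replicate 1 or LBP replicate 2.

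**Figure D3:**
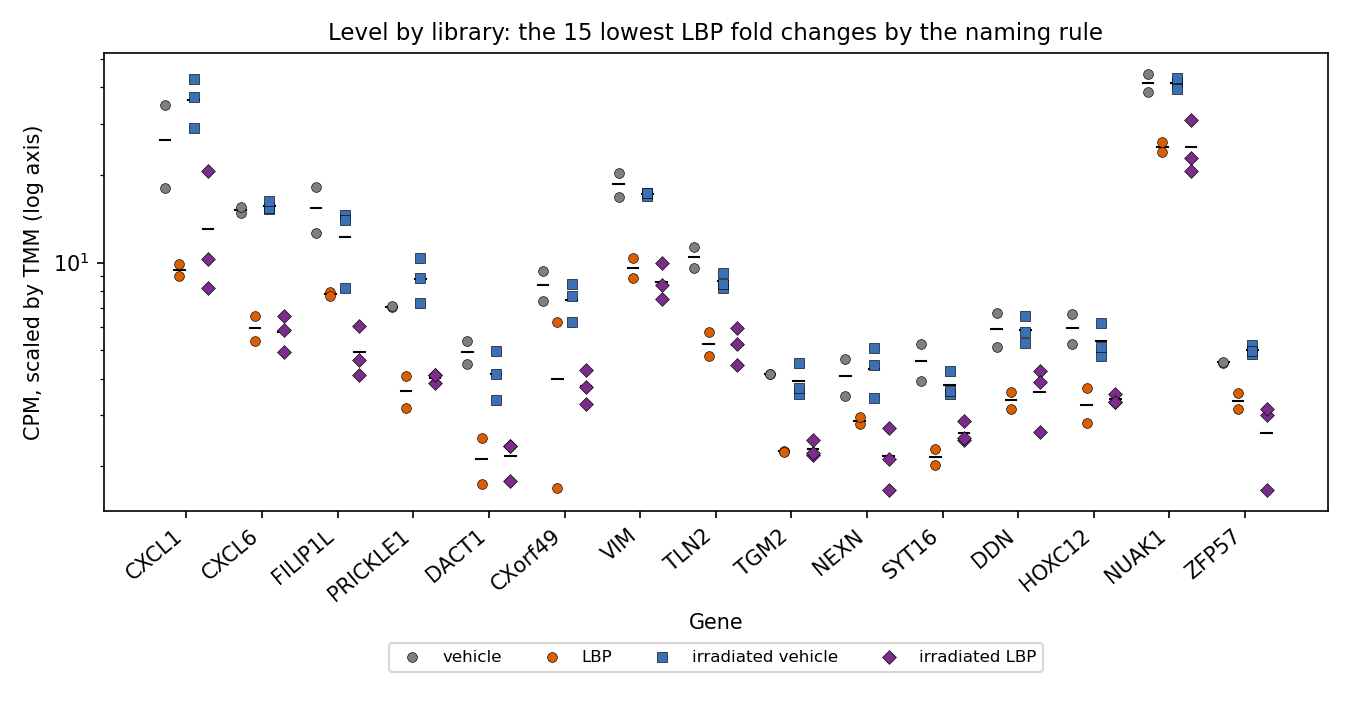
CPM (log axis, trimmed mean of M values scaling) of the 15 genes with the lowest LBP fold changes by the naming rule; each point is 1 library, colour and shape give the group, and bars are group means. The naming rule takes only genes whose LBP and vehicle libraries do not overlap within either radiation state, so all 15 show this by choice. CXCL1, FILIP1L and CXorf49 vary widely within a group.

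The lowest fold changes by the naming rule were of 2 chemokine genes, CXCL1 and CXCL6, whose products draw neutrophils. CXCL6 stood at 14.8 and 15.5 CPM in the vehicle libraries, 15.3, 15.4 and 16.3 in irradiated vehicle, 6.54 and 5.36 in LBP and 4.94, 5.86 and 6.55 in irradiated LBP. Every LBP library was under every vehicle library, with little spread in either arm (-1.40 ± 0.09; adjusted p = 9.1e-07). CXCL1 stood at 18.1 and 34.7 CPM in the vehicle libraries, 29.04, 37.03 and 42.7 in irradiated vehicle, 9.92 and 9.01 in LBP and 10.3, 8.17 and 20.7 in irradiated LBP. Here irradiated LBP replicate 3 exceeded vehicle replicate 1, so the ranges met across states but not within them (-1.48 ± 0.23; adjusted p = 0.0025). CXCL1 and CXCL6 lie close together on chromosome 4. Of 34 NF-kB and cytokine genes 4 fell and none rose (11.8% called, where 3.09% of all tested features fell). The list's median was -0.09. The other 2 were CCL2, a monocyte attractant (-1.12 ± 0.27; adjusted p = 0.028), and CXCL10, an interferon-induced chemokine at a low level (-1.13 ± 0.26). The call of CCL2 was lost in 5 of 23 settings, namely without vehicle replicate 2, LBP replicate 1, irradiated vehicle replicate 2 or 3, or irradiated LBP replicate 2. CXCL10 was tested in 20 settings and lost its call in 4. These were without vehicle replicate 2, irradiated vehicle replicate 1 or irradiated LBP replicate 1, and with replicates 1 and 2 alone. The list's count of falls was 2 without vehicle replicate 2 and 9 without irradiated LBP replicate 3. Without irradiated LBP replicate 2, 2 members rose. CXCL8 and IL6 were not called, at -0.39 ± 0.32 and 0.73 ± 0.28 (adjusted p = 0.51 and 0.13). IL6 stood at 11.2, 8.04 and 28.7 CPM in the irradiated LBP libraries, highest in replicate 3. By DESeq2 no member rose, against 3 with positive values at an unadjusted p under 0.05 in edgeR.

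Of 32 actomyosin, SRF and YAP target genes 6 fell and 1 rose, with a median of -0.02. VIM, the intermediate filament of mesenchymal cells, stood at 20.3 and 16.8 CPM in the vehicle libraries, 16.98, 17.4 and 17.3 in irradiated vehicle, 8.85 and 10.3 in LBP and 7.48, 8.35 and 9.997 in irradiated LBP. LBP and vehicle libraries were fully apart (-0.98 ± 0.09; adjusted p = 2.6e-05). FILIP1L, a filamin-interacting protein, changed by -1.17 ± 0.17, TPM1, a tropomyosin of actin filaments, by -0.50 ± 0.06 from 235 ± 16 to 166 ± 14 CPM, and CNN3, a calponin, by -0.45 ± 0.05. NEXN, an actin-binding protein, changed by -0.79 ± 0.17, a call lost with limma on the FPKM values at either pseudocount, and MYL9, a myosin light chain, also fell. VIM, TPM1 and NEXN have antisense neighbours, and the strand setting of counting is not given in the sources used here. FHL2 was the member that rose, a call that held without irradiated LBP replicate 2 and was lost without any other library. TLN2, a talin of adhesions, TGM2, a tissue transglutaminase, and NUAK1, a kinase of the AMPK family, were also among the 15 lowest, at -0.83 ± 0.11, -0.82 ± 0.11 and -0.73 ± 0.09.

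Of 30 planar polarity and Wnt genes 6 fell and 3 rose, with a median of -0.08. PRICKLE1, a core planar polarity protein, stood at 7.05 and 7.08 CPM in the vehicle libraries, 10.4, 8.82 and 7.26 in irradiated vehicle, 3.18 and 4.07 in LBP and 4.12, 3.85 and 4.13 in irradiated LBP, all LBP values being lower (-1.06 ± 0.11; adjusted p = 1.1e-04). DACT1, a Dishevelled-binding modulator, changed by -1.05 ± 0.16, WNT4, a ligand, by -0.68 ± 0.13 and FZD2, a receptor, by -0.60 ± 0.11, and WNT5B and SFRP1 also fell. DKK3, CELSR1 and WNT7B rose, of which 1 was called without vehicle replicate 2 or irradiated vehicle replicate 1 or 2. Of 32 matrix genes 4 fell and 3 rose, with a median of -0.05. MMP9, a gelatinase, stood at 16.7 and 15.6 CPM in the vehicle libraries, 19.04, 18.2 and 15.7 in irradiated vehicle, 9.20 and 10.98 in LBP and 11.5, 10.3 and 15.1 in irradiated LBP (-0.58 ± 0.11; adjusted p = 0.0065). Its arms were apart within each state, and irradiated LBP replicate 3 came close to the vehicle range. The matrix proteins TNC, FN1 and SPARC also fell. Among the genes that rose were SERPINE2, a protease inhibitor (0.28 ± 0.07), and LOXL2, which crosslinks collagen (0.36 ± 0.08). The 4 falls were 1 without irradiated vehicle replicate 1 or 2 and 2 without LBP replicate 1, and of the 3 rises 1 was called without vehicle replicate 2, LBP replicate 1, any irradiated vehicle replicate or irradiated LBP replicate 1. Of 18 Notch genes 2 fell and none rose (11.1% called, where 3.09% of all tested features fell). The 2 were DLL1, a ligand (-0.34 ± 0.05), and LFNG, which glycosylates the receptor (-0.41 ± 0.08). Other genes among the 15 lowest were SYT16 (-0.76), DDN (-0.75) and HOXC12 (-0.74). CXorf49 (-1.02 ± 0.25) lost its call without vehicle replicate 1, irradiated vehicle replicate 1 or 3, or irradiated LBP replicate 1, and with replicates 1 and 2 alone, and ZFP57 (-0.73 ± 0.16) without irradiated vehicle replicate 2.

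Genes of cell division and of protein folding and turnover moved little. Of 43 tested genes of G2 and mitosis, 6 fell and no member rose, with a median of -0.14, and 38 had negative values. TPX2, a spindle assembly factor, stood at 517 and 493 CPM in the vehicle libraries, 352, 351 and 352 in irradiated vehicle, 399 and 398 in LBP and 297, 329.8 and 324 in irradiated LBP. In non-irradiated cells both LBP libraries were well under both vehicle libraries, and in irradiated cells the gap was narrower (-0.23 ± 0.05; adjusted p = 0.022). PRC1, BIRC5, BUB1, PTTG1 and KIF20B were the others. The count rested on single libraries: it was 0 without vehicle replicate 2, LBP replicate 1, irradiated vehicle replicate 1 or irradiated LBP replicate 1, 1 without irradiated vehicle replicate 2, and 12 with DESeq2, while 20 members had negative values at an unadjusted p under 0.05. Of 25 heat shock and chaperonin genes 3 fell (12% called, where 3.09% of all tested features fell), none rose, and the median was -0.12. The 3 were CHORDC1, an HSP90 cochaperone (-0.33 ± 0.07), HSPA4L (-0.35 ± 0.08) and CCT2, a chaperonin subunit (-0.24 ± 0.05). CCT2 was not called without irradiated vehicle replicate 1. The count was 5 without LBP replicate 2 and 7 with DESeq2, and 12 members had negative values at an unadjusted p under 0.05. Of 32 proteasome genes 2 fell (6.25% called, where 3.09% of all tested features fell). The list's median was -0.08, with 0.008 in non-irradiated and -0.16 in irradiated cells. Its count of falls was 6 without LBP replicate 2, 1 without irradiated LBP replicate 2 and 0 without any other library but vehicle replicate 1. Of 41 S phase genes 2 fell (4.88% called, where 3.09% of all tested features fell), TYMS, which makes thymidylate (-0.23 ± 0.06), and POLD3 (-0.18 ± 0.05). That count was 4 without irradiated LBP replicate 2, 1 without vehicle replicate 2 and 0 without any other library but LBP replicate 2. Medians of the S phase list were -0.002 in non-irradiated and -0.12 in irradiated cells.

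Autophagy and lysosome genes rose in 6 of 26 tested cases, among them CTSD (0.41 ± 0.07) and CTSL (0.36 ± 0.05), proteases, and PSAP (0.31 ± 0.06), and none fell. Of 22 fatty acid genes 2 rose (9.09% called, where 4.43% of all tested features rose). These were the desaturases FADS2 (0.37 ± 0.07) and FADS1 (0.26 ± 0.06). FADS1 was lost in 10 of 23 settings, and the count was 1 without any library but vehicle replicate 1, LBP replicate 2 or irradiated LBP replicate 2. Of 37 p53 targets 1 rose and 2 fell, near the background shares. CDKN1A, the p21 cell cycle inhibitor, stood at 108 and 128 CPM in the vehicle libraries, 136, 139.9 and 159 in irradiated vehicle, 159.6 and 147 in LBP and 225, 126 and 244 in irradiated LBP, so irradiated LBP replicate 2 lay below irradiated vehicle replicates (0.43 ± 0.14; adjusted p = 0.082). Without that replicate CDKN1A was called and 7 p53 targets rose, and without LBP replicate 2, 2 rose. CCNG1, a cyclin, fell by 0.27 on the log2 scale, while FBXW7 and POLH lost their calls in 15 and 16 of 23 settings. Of 35 interferon-stimulated genes 1 rose (2.86%, where 4.43% of all tested features rose), TRIM22, lost in 16 settings, and without irradiated LBP replicate 2, 3 fell. Of 26 apoptosis regulators 1 fell (3.85%, near the 3.09% of all tested features), APAF1 (-0.32 ± 0.07), which was not called without irradiated vehicle replicate 1. Without irradiated vehicle replicate 3 or irradiated LBP replicate 3 the fall count was 2, and 3 rose without irradiated LBP replicate 2.

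Several lists had no call by edgeR, where 7.51% of all tested features were called. At that share lists of this size would hold few calls, so their absence does not set these genes apart. None of 24 cholesterol synthesis genes was called (2 at an unadjusted p under 0.05, none by DESeq2). None of 32 double-strand break repair genes was called (4 at an unadjusted p under 0.05, 2 by DESeq2), nor any of 19 replication-dependent histones (3 and none). None of 33 ribosomal protein genes, 31 nuclear respiratory chain genes or 13 mitochondrially encoded genes was called, with none at an unadjusted p under 0.05 and none by DESeq2. Their pooled medians, 0.01, 0.01 and 0.03, joined state values of opposite sign. Ribosomal protein genes had a median of 0.16 in non-irradiated and -0.09 in irradiated cells, nuclear respiratory genes 0.12 and -0.08, and mitochondrially encoded genes -0.28 and 0.21. No member of these lists was called for interaction, and the sums rested partly on single libraries. Ribosomal protein genes summed to 41861 CPM in LBP replicate 2 and to 31842 to 36645 CPM in all the others, and mitochondrially encoded genes to 18438 CPM in irradiated vehicle replicate 3 and 21675 to 33060 CPM in the others. The part of these libraries in the opposite signs was not tested. Single calls came and went in lists at or near 0 when a library was left out: without vehicle replicate 1, 1 double-strand break repair gene fell, and without irradiated LBP replicate 2, 1 histone gene rose.

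For the 10 lists named above as NRF2 antioxidant, aldo-keto reductase, aryl hydrocarbon receptor, integrated stress response, hypoxia, lysosome, basal, differentiation, activated keratinocyte and immediate early, no member with a negative value had an unadjusted p under 0.05, and DESeq2 called no fall. The absence of falls was less plain in other lists: 3 unfolded protein response genes, 2 thioredoxin and glutathione genes, 2 zinc genes and 1 gene each of iron, NADPH, fatty acid and EGF lists had negative values at an unadjusted p under 0.05. DESeq2 called 1 fall in each of the thioredoxin, iron and fatty acid lists. In the lists with falls, no mitosis or proteasome gene had a positive value at an unadjusted p under 0.05, against 1 heat shock gene, 1 S phase gene, 3 apoptosis genes and 3 Notch genes, of which DESeq2 called 1 apoptosis and 1 Notch gene higher.

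**Figure D4:**
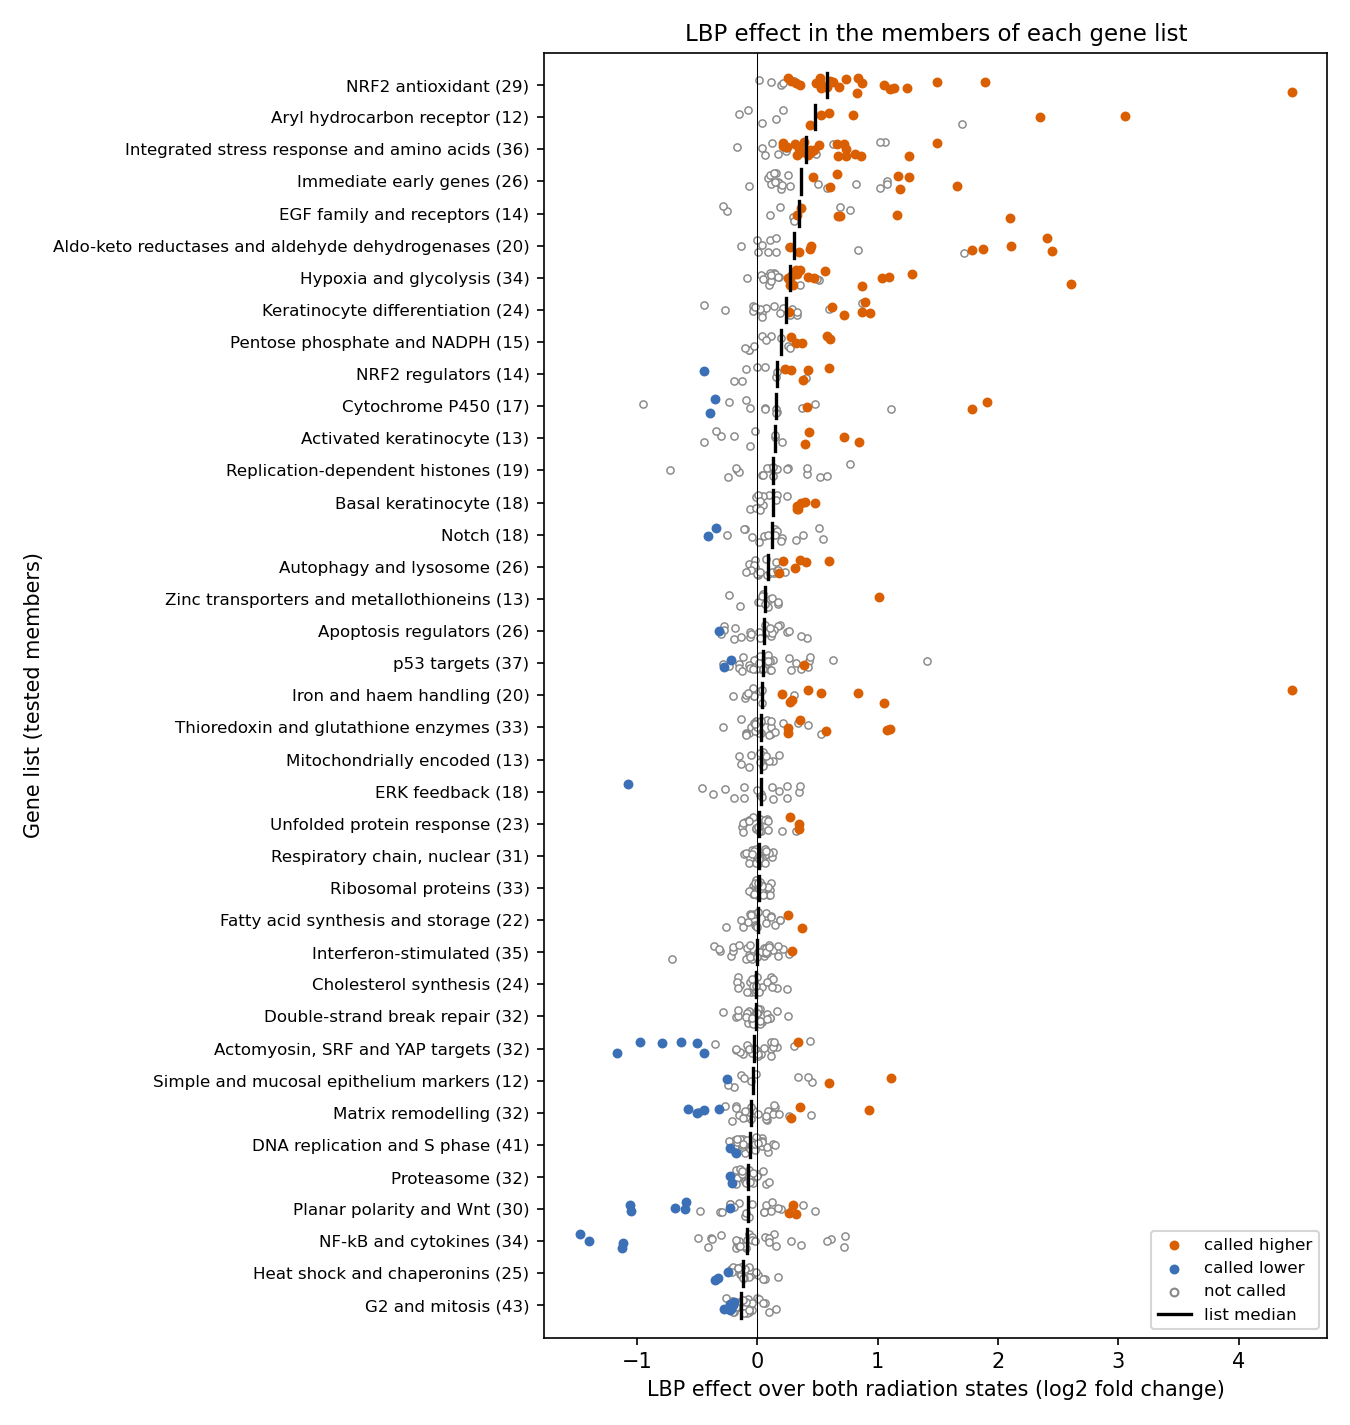
Log2 fold change of LBP against vehicle, over both radiation states, for each tested member of the gene lists with at least 10 tested members, sorted by list median; filled points passed the test, open points did not, and black bars are list medians. Among these lists the NRF2 antioxidant list has the highest median, 0.58, and the G2 and mitosis list the lowest, -0.14; a gene can stand in more than 1 list.

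Within single radiation states LBP changed 119 features in non-irradiated cells (0.804%, 2 libraries against 2) and 645 in irradiated cells (4.36%, 3 against 3), and 92 were in both sets. In non-irradiated cells 80 were higher (0.541%) and 39 lower (0.264%), and in irradiated cells 413 were higher (2.79%) and 232 lower (1.57%). The pooled test shared 523 of its calls with at least 1 state. The other 589 of its 1112 calls were made in neither state alone. They were small, with a median size of 0.31, and 309 were higher and 280 lower. Examples by the naming rule were AKR1B1, an aldose reductase (0.35 ± 0.06), FOSL1, MMP9, PGK1, a glycolytic kinase (0.29 ± 0.05), TUBE1, a tubulin (0.42 ± 0.08), BLMH, a cysteine protease (-0.30 ± 0.05), SLFN11, a factor that stalls replication forks under damage (-0.27 ± 0.05), SLC43A3, a purine transporter (-0.30 ± 0.05), DNAL4 (0.66 ± 0.12) and KCNAB2 (0.54 ± 0.10). PGK1 shows the pattern, at 846 and 756 CPM in the vehicle libraries, 750.3, 731 and 806 in irradiated vehicle, 974 and 1060 in LBP and 890.1, 923 and 921 in irradiated LBP. Its LBP values were all higher within each state, with within-state adjusted p of 0.095 and 0.055 and a pooled one of 0.0066. In turn 149 features were called in a state and not in the pooled test.

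The features that rose in the pooled test had the same sign in both states in 654 of 655 cases and those that fell in 456 of 457, where 61.3% of all tested features did. The signs follow largely from the pooled call itself, which uses both states. Median log2 fold changes of the features that rose were 0.34 in non-irradiated and 0.43 in irradiated cells, and of those that fell -0.32 and -0.31. The difference of the LBP effect between states was tested as an interaction. It passed for 2 features (0.0135%), 1 in each direction (0.00676%), with 1213 at an unadjusted p under 0.05 and 16 called by DESeq2. None of the 1112 pooled calls was among the 2. Their smallest adjusted interaction p was 0.24, and their median interaction SE was 0.15, beside a median size of 0.36 for the LBP effect itself. KRT16, labelled in the plot of the states, changed by 1.27 in non-irradiated and 0.56 in irradiated cells (interaction -0.71 ± 0.23; adjusted p = 0.57). For HMOX1 the interaction was -0.52 ± 0.29 (adjusted p = 0.65), for FTL -0.30 ± 0.12 and for FTH1 0.00 ± 0.14.

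**Figure D5:**
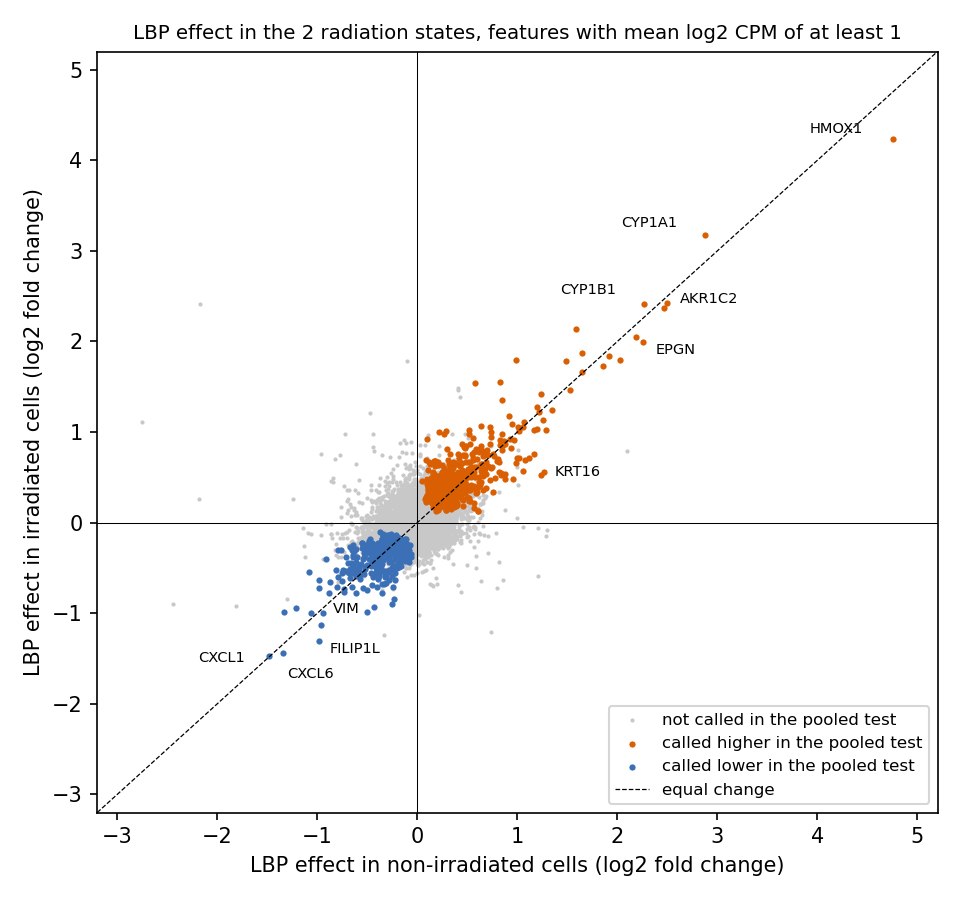
Log2 fold change of LBP against vehicle in non-irradiated cells (x axis, 2 libraries against 2) and in irradiated cells (y axis, 3 against 3) for 11575 features with a mean log2 CPM of at least 1; coloured points passed the pooled test and the dashed line marks equal change. HMOX1, CYP1A1, AKR1C2, CYP1B1 and EPGN lie near that line at the upper right and CXCL1 and CXCL6 at the lower left.

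The 2 interactions were of features at 0 in whole groups. PDE8B, a phosphodiesterase, stood at 0.974 and 0.875 CPM in the vehicle libraries, 0.909, 1.27 and 0.862 in irradiated vehicle, 0 and 0 in LBP and 1.28, 1.39 and 1.47 in irradiated LBP. Zero counts in the 2 LBP libraries allow levels of up to 0.0746 and 0.0702 CPM. This limit is 3 counts, and it covers only the error of counting, with each count taken as independent. If both mates of a read pair were counted, the limit would be higher. AC008982.1, a transcript without an assigned role that overlaps ECH1 and HNRNPL, had the reverse arrangement, at 0 and 0 CPM in the vehicle libraries, 0.540, 0.719 and 0.605 in irradiated vehicle, 0.522 and 0.421 in LBP and 0, 0 and 0 in irradiated LBP. Fitted folds of such features depend on the small count that the fit adds, so none is given as a bound. Neither was called in the pooled test, where PDE8B had an adjusted p of 0.54 and AC008982.1 of 0.69.

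By level rather than fold, and among called genes whose arms did not overlap within either state, the 5 largest rises in mean CPM were of FTH1, SLC7A5, FTL, SLC3A2 and ALDH1A3. They carried 3693, 746, 595, 354 and 338 CPM more in LBP than in vehicle libraries. The 5 largest falls under the same limit were of CCT2, SERBP1, an mRNA-binding protein (-0.19 ± 0.05), PA2G4, a growth regulator (-0.24 ± 0.06), ANLN, a scaffold of the cytokinetic ring (-0.18 ± 0.05), and TPM1. They were smaller, at 69.0 CPM for TPM1 to 73.9 CPM for SERBP1 among the extremes, and SERBP1, PA2G4 and ANLN lost their calls in 12, 8 and 9 of 23 settings. Without that limit KRT17 (1736 ± 154 to 2339 ± 294 CPM) would rank among the rises, and FN1, the matrix protein fibronectin (4135 ± 578 to 2948 ± 553 CPM, -0.50 ± 0.12; adjusted p = 0.023), and KRT18 would lead the falls. Their LBP and vehicle values overlapped in at least 1 state. In GRCh38, with GENCODE annotation, HMOX1 (ENSG00000100292.16) occupies chr22:35380361-35394214 (plus), with the strand in brackets. CYP1A1 occupies chr15:74719542-74725610 (minus), EPGN chr4:74308473-74315307 (plus), OSGIN1 chr16:83948282-83966332 (plus) and FTH1 chr11:61959718-61967660 (minus). Among genes that fell, CXCL6 occupies chr4:73836497-73849064 (plus), CXCL1 chr4:73869393-73871242 (plus) and PRICKLE1 chr12:42456757-42590355 (minus). All of these are annotated as protein coding, and the counts are over whole genes.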

How the data were processed

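RNA was sequenced from 10 HaCaT libraries. The authors deposited counts and FPKM values (fragments scaled to gene length and depth) per gene in 2 tables. The genome build GRCh38 and the aligner HISAT2 are given per the submitters' processing notes, while for the counting tool, annotation release and strand setting the sources used here give nothing. Counts are whole numbers, but 59.7% of counts from 1 to 10 are even, so both mates of a read pair may have been counted. The tables include assembled loci without gene names. Depth ran from 31830506 to 62986831 counts, so that 0 counts allow up to 0.0478 to 0.0925 CPM (3 counts), which covers counting error only. These limits take each count as independent and would be higher if both mates were counted. No column belonged to another sample.

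Counts were tested with edgeR 4.0.16 (R 4.3.3): trimmed mean of M values scaling, filterByExpr with a minimum count of 10, and the quasi-likelihood test of LBP with radiation as an additive term. A fit with 4 groups gave the within-state effects and the interaction. P-values were adjusted by Benjamini-Hochberg over all 14799 tested features, and calls are those with an adjusted p under 0.05. The deposited FPKM values were used in limma 3.58.1 as log2(FPKM + 1), and DESeq2 1.42.0 was another alternative. The other alternatives were other scalings, filters, voom, no radiation term, the average of within-state effects, replicates 1 and 2 only, a replicate block and leaving out each library, 23 settings in all. The pooled test was also run on simulated counts with changes of 1.5-fold or more and no radiation effect. That run did not cover smaller changes, which most calls were.

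Named genes were the 15 highest and 15 lowest fold changes among called genes with a conventional symbol, a mean of 1 or more on the log2 CPM scale and no overlap between arms within each state. To these were added the 10 smallest p-values, a set of genes of interest, up to 4 genes with the smallest p of each of 43 lists, the interaction calls, 10 genes called in the pooled test alone, and the 5 largest rises and falls in CPM. Other called list members were named after their values were seen. Members and lists were chosen with earlier results of these data known. Some items withheld for evaluations are not reported here. Promoter sequences are from RefSeq (GRCh38.p14), matched by symbol to 10709 tested features.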

Additional observations from a re-analysis of the deposited data

Results flagged for a closer look

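Among the named genes, 20 of 404 groups of 5 libraries held a library that stood apart, where chance flags about 1 in 20 groups. The measure was the gap to the nearest other library over the whole range, on log2 CPM adjusted for radiation. Of the 20, 4 came from irradiated LBP replicate 2 and 3 from irradiated vehicle replicate 3.

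In the vehicle arm the low libraries were irradiated vehicle replicate 1 for CYP1A1 (0.885) and UGT1A3 (0.836), vehicle replicate 1 for FABP5 (0.841) and DUSP6 (0.741), irradiated vehicle replicate 2 for SLC3A2 (0.808), irradiated vehicle replicate 3 for CTSL (0.751) and vehicle replicate 2 for RNF8 (0.722). CYP1A1 stood at 8.18 CPM in that library and 12.0 to 14.4 CPM in the other vehicle libraries, all far below the LBP arm. High libraries in the vehicle arm were irradiated vehicle replicate 3 for PA2G4 (0.936) and DNAL4 (0.737) and irradiated vehicle replicate 2 for MITF (0.741).

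In the LBP arm irradiated LBP replicate 2 was low for ZFP57 (0.819) and BCL2L2 (0.801) and high for TXNIP (0.733) and BUB1 (0.818). Irradiated LBP replicate 3 was high for TGM2 (0.88) and irradiated LBP replicate 1 for CA9 (0.722). LBP replicate 2 was low for MDM2 (0.764) and APAF1 (0.747), and LBP replicate 1 was low for COL3A1 (0.746) and PRC1 (0.741).

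Both interaction calls rest on groups at 0 counts. The fitted difference in the LBP effect, irradiated minus non-irradiated, was 8.82 for PDE8B and -15.2 for AC008982.1 on the log2 scale. These values depend on the prior count and are no bounds.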

How the results depend on the processing

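The count of 1112 features changed by LBP was 506 to 1109 with 1 library left out, with 315 to 668 higher and 184 to 475 lower. The non-irradiated count of 119 was 38 to 175, the irradiated count of 645 was 176 to 722, and the interaction count of 2 was 0 to 5 over the same left-out libraries. With limma on log2(FPKM + 1), 739 features were called, 326 of them higher, and 331 were higher at a pseudocount of 0.1. DESeq2 called 748 lower, 374 in non-irradiated cells, 1228 in irradiated cells and 16 for interaction. Without a filter on low counts 188 were called in non-irradiated cells and 7 for interaction. The cause was not tested, beyond the smaller number of libraries when 1 is left out. Apart from the interaction count under the replicate block, given below, the other pooled counts (all, higher and lower) and the other within-state and interaction totals were within 1.5 times the reported ones. Of the 132 named genes that were called, 87 kept the call in every setting in which the gene was tested. None of the 132 changed sign in any of those settings.

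Several list counts moved by over 1.5 times. With limma on the FPKM values the rises were 2 of NRF2 regulators (5 reported), 4 of iron genes (8), 2 of activated keratinocyte genes (4) and 1 each of unfolded protein response (3), fatty acid (2) and Wnt genes (3). DESeq2 gave 8 rises of NADPH genes (5) and falls of 12 mitosis (6), 7 heat shock (3) and 6 proteasome genes (2). With library totals alone, falls were 6 of heat shock and 4 of proteasome genes, and with upper quartile scaling 5 and 4. Without the radiation term no mitosis and no proteasome gene fell, 1 S phase gene fell (2) and 4 immediate early genes rose (7). Replicates 1 and 2 alone gave 8 NF-kB falls (4), 3 NRF2 regulators (5), 1 matrix rise (3), 1 unfolded protein response gene and no S phase or proteasome fall.

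Replicate numbers are shared across groups, but deviations of same-numbered libraries correlated at -0.16 to 0.11, so the numbers were not taken as pairs. With a replicate block the pooled count was 1160, the non-irradiated count 148, the irradiated count 813 and the interaction count 1, and 5 heat shock genes fell. Effect size, depth and replication limit what can be resolved: 858 of the calls were under 1.5-fold, and the arms hold 5 libraries each.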

Other observations

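Genes ranked just below the 15 named in each direction were looked at after their values were seen. Among those that rose, TSPAN7, a tetraspanin of the cell surface, went from 1.37 ± 0.15 to 3.48 ± 0.40 CPM (1.35 ± 0.14; SD, n = 5 each; edgeR adjusted p = 6.5e-05), and TCAF2, a partner of TRP channels, from 3.08 ± 0.54 to 6.34 ± 0.97 CPM (1.03 ± 0.12). Both were called in all 23 settings. Among those that fell, TLR4, the receptor for bacterial lipopolysaccharide, went from 5.36 ± 0.60 to 3.28 ± 0.66 CPM (-0.71 ± 0.12; adjusted p = 0.0045), and the cytokine IL32 from 11.3 ± 1.3 to 7.18 ± 0.33 CPM (-0.65 ± 0.08; adjusted p = 3.2e-04). RNF152, a lysosomal ubiquitin ligase, went from 20.04 ± 1.3 to 13.1 ± 1.6 CPM (-0.61 ± 0.09), and LYPD1, a modulator of nicotinic receptors, from 18.99 ± 2.1 to 11.8 ± 1.4 CPM (-0.68 ± 0.09). The transcription factors NR2F1 and BARX2 changed by -0.69 ± 0.13 and -0.65 ± 0.11. Their calls held in every setting in which the gene was tested.

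Below a mean log2 CPM of 1 stood most of the called features that changed at least 2-fold. Some were at 0 in a whole arm, such as MYOCD, whose fitted change of -6.10 ± 4.78 is no bound. A few genes with counts in both arms are given here. HKDC1, a hexokinase, went from 0.485 ± 0.092 to 1.79 ± 0.49 CPM (1.87 ± 0.24; adjusted p = 5.7e-04), NRCAM, a cell adhesion molecule, from 0.324 ± 0.12 to 1.62 ± 0.58 CPM (2.33 ± 0.32), and SLC47A2, an exporter of organic cations, from 0.311 ± 0.069 to 0.826 ± 0.31 CPM (1.40 ± 0.24). NDUFA4L2, a hypoxia-induced mitochondrial protein, changed by 1.15 ± 0.20. EPO, the erythropoietin gene and also a known hypoxia target, went the other way, from 2.09 ± 0.32 to 1.00 ± 0.34 CPM (-1.05 ± 0.22; adjusted p = 0.015). ANKLE1, a nuclease, changed by -1.36 ± 0.23, and AGTR1, an angiotensin receptor, by -1.29 ± 0.28.

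The clone-named feature AL355312.5 had 427 and 386 counts in LBP replicates 1 and 2 (10.6 and 9.04 CPM) and at most 6 counts in each of the other 8 libraries. It passed the pooled test, although its LBP effect was 6.89 in non-irradiated and 1.40 in irradiated cells. Its interaction between states had an adjusted p of 0.24. The assembled locus MSTRG.17658 went from 16.4 ± 2.6 to 51.9 ± 11 CPM (1.66 ± 0.14; adjusted p = 1.3e-05) and MSTRG.25613 from 4.13 ± 0.32 to 9.60 ± 1.1 CPM (1.22 ± 0.10), both apart in each radiation state. The assembled loci carry no gene name in the table.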
